A study of Mus musculus with 419 samples.

Results

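The 39 genes described here are interferon-response genes of the mouse, the set of transcripts that cells switch on when interferon reaches them or when they detect foreign nucleic acid. They were chosen by symbol from a list of 39 names and make up 39 of the 55487 genes in the count table. The list was drawn up with earlier results of these data known. The mice were of the CBA/CaJ strain, and bulk RNA-seq of polyadenylated RNA covered 19 tissues in 419 libraries, in a study of Relative Energy Deficiency in Sport. In the Deficient groups the mice were energy-deficient and in the Control groups energy-sufficient; how the deficit was imposed and the age of the mice are not given in the sources used here. Deficient and Control mice of both sexes were sampled at ZT05 or ZT17, that is 5 or 17 hours after lights on. These groups and the tissues gave 140 groups, of which 139 held 3 libraries and 1 held 2. Females gave 18 tissues and males 17, with 16 tissues in both sexes. All mice shared the strain, and the labels name no altered allele or drug. The number that opens the name of a library, from 31 to 62 or from 73 to 94, was taken as the number of the animal; females fall in the first range, and males in both.

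Interferons are secreted proteins that bind receptors on neighbouring cells and act through JAK kinases and a complex of transcription factors that includes STAT2 and IRF9. This complex binds a short DNA element in front of its target genes, and the targets include the sensors and transcription factors of the pathway itself, so that the response feeds back on its own machinery. The uterus is a mucosal barrier tissue whose epithelium also makes an interferon of its own, interferon epsilon, which in mice follows the oestrous cycle and oestrogen. The 39 members were grouped by role: 4 sensors of foreign nucleic acid, 3 signalling proteins, 8 effectors that act on RNA, 13 other antiviral effectors, 7 interferon-induced GTPases, 1 chemokine and 3 antigen-processing genes.

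The element that the complex binds was looked for in the promoters as GAAANNGAAA on either strand, where N is any base. RefSeq promoter windows on GRCm38.p6, running from 250 bases before to 50 bases after the start, were at hand for 28 of the 39 members. The motif stood in 17 of these 28 members (60.7%), each searched in 1 window. Of all 27025 symbols, 1079 (3.99%) held it in any of their windows, so that the shares are not counted alike. Ifit2, Trim30a and Gbp3 had 2 windows, of which only the first listed was searched. Of the 28 members, 7 held 2 or more matches. The stretches of 60 bases around matches in 7 members are printed here because they belong to different roles and because their genes had different responses in the uterus; the capitals mark the matches, which read TTTCNNTTTC where they lie on the other strand.
Isg15 (chr4:156200856-156200915, minus strand): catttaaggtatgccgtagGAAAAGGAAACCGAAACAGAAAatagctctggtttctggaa
Oas3 (chr5:120777700-120777759, minus strand): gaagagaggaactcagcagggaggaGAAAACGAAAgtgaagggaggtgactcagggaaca
Ifit1 (chr19:34640769-34640828, plus strand): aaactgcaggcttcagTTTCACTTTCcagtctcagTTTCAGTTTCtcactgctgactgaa
Ifit3 (chr19:34583365-34583424, plus strand): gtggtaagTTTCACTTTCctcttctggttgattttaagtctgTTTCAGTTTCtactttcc
Bst2 (chr8:71537565-71537624, minus strand): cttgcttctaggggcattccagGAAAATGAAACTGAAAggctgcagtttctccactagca
Igtp (chr11:58199496-58199555, plus strand): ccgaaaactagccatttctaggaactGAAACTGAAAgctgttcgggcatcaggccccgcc
Cxcl10 (chr5:92349068-92349127, minus strand): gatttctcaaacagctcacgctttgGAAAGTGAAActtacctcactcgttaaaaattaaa
In the Isg15 stretch 3 matches overlapped, and in that of Bst2 2 did, whereas Ifit1 and Ifit3 held 2 separate ones each. A match describes the letters and does not show binding.

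Library totals ran from 5777450 to 53598697 counts. In 49 libraries, all from males numbered 31 to 62, mitochondrial genes took over 50% of the counts. Of 57 pairs of a defining gene and a tissue, 54 were at 1 CPM or more in every library of that tissue. The exceptions were the libraries labelled ovary: Zp3, which encodes an egg coat protein, was below 2 CPM in 9 of these 12 libraries and reached 29.6 CPM in Deficient no. 59 and 88.7 and 15.3 CPM in Control nos. 39 and 47. Inha, a granulosa cell gene, lay between 3.80 and 8.54 CPM in 7 of the 9 and at 42.1 CPM in Deficient no. 35 and 127 CPM in Control no. 32, against 332 CPM in no. 59 and 1636 and 310 CPM in nos. 39 and 47. Ovgp1, which encodes the oviductal glycoprotein, stood at 1245 to 17150 CPM in all 12, against 3.57 to 88.3 CPM in uterus. These genes other than Zp3 were looked up after their values had been seen, and the tissue is called "labelled ovary" from here on. In the uterus, Hoxa11, a patterning gene of that organ, was at 39.3 to 96.0 CPM in every library.

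Some animals stood apart in the module mean, the mean of log2(CPM + 1) over the 39 members. Male no. 62 (Deficient, ZT17) was the highest male in 9 of its 10 tissues, with a median deviation of 0.90 from its tissue. Male no. 82 (Deficient, ZT17) was among the 3 highest in 7 of 7 tissues (median deviation 0.95), and no. 93 (Control, ZT05) likewise in 7 of 7 (0.52). Male no. 86 (Control, ZT17) was the highest in 6 of 8 tissues (0.98). Results in males are therefore given with and without nos. 62, 82 and 86, a choice made after seeing the data. In the uterus, no. 35 had the highest module mean of the Deficient libraries and no. 48 the lowest of the Control libraries.

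In the uterus, the module as a whole was lower in Deficient than in Control females. Of the 39 members, 36 were called lower at an edgeR adjusted p under 0.05 and 0 higher, while 23.8% of the 17734 genes tested were called lower and 21.2% higher. All 39 fold changes were negative, with a median of -1.92 on the log2 scale against -0.02 over all genes tested. Since the members were chosen with earlier results of these data known, these values describe the list and do not test it as a set. The module mean was 4.56 ± 0.40 in Deficient and 6.56 ± 0.61 in Control uteri (SD, n = 6 each), a difference of -1.996. The Deficient libraries ran from 4.14 to 5.30 and the Control libraries from 5.45 to 7.05, without overlap, and the mean over all genes was 4.07 in Deficient and 4.09 in Control. In 21 members every Deficient library lay below every Control library, which held for 10.5% of all genes. In bulk tissue, fewer cells of a type and less RNA per cell cannot be told apart. Without nos. 35 and 48, 37 members were called lower (23% of all genes), with a median of -2.29; these libraries lie nearest to the other group, so that leaving them out widens the difference by construction.

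**Figure D1:**
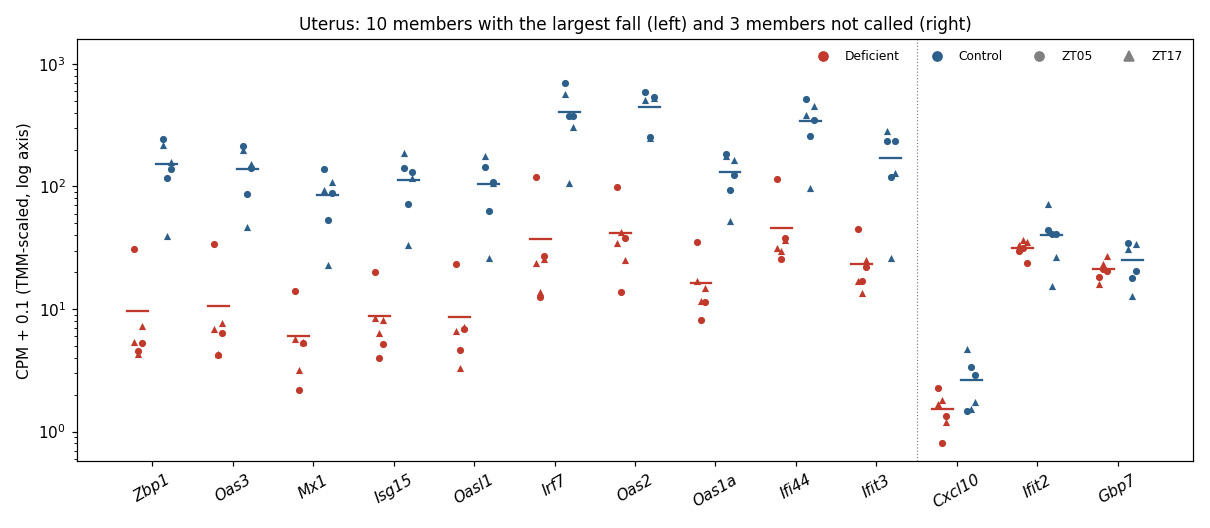
CPM of 13 members in the 12 uterus libraries on a log axis, Deficient left and Control right of each gene name, circles for ZT05 and triangles for ZT17, horizontal lines for group means. The 10 members with the largest fold change separate or nearly separate the groups, with Zbp1 at 4.22 to 30.5 CPM in Deficient and 39.4 to 243 CPM in Control uteri, while Cxcl10, Ifit2 and Gbp7 overlap.

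All 4 sensors fell, with a median log2 fold change of -2.11. Zbp1, a sensor of Z-form nucleic acid that can start necroptosis, had 4.22, 5.24 and 30.5 CPM (lowest, median, highest) in Deficient uteri, against 39.4, 149 and 243 CPM in Control uteri. The groups did not overlap, and its log2 fold change of -4.13 ± 0.56 (SE; edgeR adjusted p = 0.000342) was the largest of the module. The RNA helicase genes fell by less: Dhx58 by 2.89, Ifih1 (MDA5) by 1.33 and Ddx58 (RIG-I) by 1.05 on the log2 scale. The 3 signalling members also fell. Irf7, the transcription factor that amplifies type I interferon transcription, had 12.4, 24.6 and 119 CPM in Deficient uteri, against 106, 373 and 696 CPM in Control uteri. The highest Deficient library, no. 35, lay above the lowest Control library, no. 48, and the log2 fold change was -3.57 ± 0.56 (edgeR adjusted p = 0.000611). Usp18, an inhibitor that detaches ISG15 and dampens receptor signalling, fell by 2.47, and Stat2 by 1.89.

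Of the 8 effectors that act on RNA, 7 fell (median -2.96). The oligoadenylate synthetases make the messenger that activates RNase L. Oas3 had 4.08, 6.54 and 33.5 CPM in Deficient uteri, against 46.3, 147 and 214 CPM in Control uteri, with no overlap (log2 fold change -3.86 ± 0.55, edgeR adjusted p = 0.000406). Oas2 had 13.8, 36.0 and 98.1 CPM in Deficient uteri, against 249, 517 and 594 CPM in Control uteri, again without overlap (-3.43 ± 0.44, edgeR adjusted p = 0.000292). Oasl1, which in mice restrains translation of Irf7, had 3.23, 6.68 and 23.3 CPM in Deficient uteri, against 26.0, 108 and 178 CPM in Control uteri. Its groups were separate too (-3.69 ± 0.53, edgeR adjusted p = 0.000401). Oas1a had 8.10, 13.1 and 35.0 CPM in Deficient uteri, against 51.8, 143 and 185 CPM in Control uteri (-3.03 ± 0.41, edgeR adjusted p = 0.00033). The IFIT proteins bind foreign RNA caps and ends. Ifit3 had 13.5, 19.5 and 45.2 CPM in Deficient uteri, against 25.8, 182 and 285 CPM in Control uteri, where 1 Control library lay among the Deficient ones (-2.90 ± 0.49, edgeR adjusted p = 0.000832). Ifit1 fell by 2.45 and Oasl2 by 2.13. Ifit2 did not pass: it had 23.5, 32.3 and 36.3 CPM in Deficient uteri, against 15.3, 40.7 and 72.2 CPM in Control uteri (-0.35 ± 0.29, edgeR adjusted p = 0.354).

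All 13 other antiviral effectors fell, with a median of -2.23. Mx1, a dynamin-like GTPase that blocks influenza viruses, had 2.10, 5.25 and 13.95 CPM in Deficient uteri, against 22.9, 91.0 and 139.5 CPM in Control uteri (-3.85 ± 0.51, edgeR adjusted p = 0.000313). Isg15, a ubiquitin-like modifier, had 3.91, 7.20 and 20.1 CPM in Deficient uteri, against 32.9, 124 and 186 CPM in Control uteri (-3.72 ± 0.49, edgeR adjusted p = 0.000315). Neither gene showed overlap between the groups. Ifi44 had 25.5, 33.7 and 115 CPM in Deficient uteri, against 97.8, 365 and 517 CPM in Control uteri, with no. 35 above no. 48 (-2.95 ± 0.43, edgeR adjusted p = 0.000457). Bst2 (tetherin), which holds budding virions at the cell surface, fell by 2.23 and was the most abundant member per length, at 68.7 CPM per kb of exon in Deficient and 322 CPM per kb in Control uteri. Isg15 was second in Control uteri at 150 CPM per kb, but Ifi27 was second in Deficient uteri at 55.3 CPM per kb and fell least in this group, by 0.93. Rsad2 (viperin) fell by 1.80 ± 0.52 (edgeR adjusted p = 0.0146), with Control libraries from 8.35 to 134 CPM. Mx2, which the annotation marks as a polymorphic pseudogene, fell by 2.23.

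Among the interferon-induced GTPases, which attack the vacuoles of intracellular pathogens, 6 of 7 fell (median -1.51). Irgm1 fell by 1.98, Igtp by 1.71, Gbp3 by 1.51, Gbp2 by 1.39 and Iigp1 by 1.37 on the log2 scale. Gbp10 fell by 1.92 ± 0.71 (edgeR adjusted p = 0.0454), a call that did not hold in 12 of 20 other settings. Gbp7 did not pass, at 15.8, 20.7 and 27.1 CPM in Deficient uteri, against 12.7, 25.5 and 34.2 CPM in Control uteri (-0.25 ± 0.25, edgeR adjusted p = 0.437). The 3 antigen-processing genes fell: Psmb8 by 1.76 and Psmb9 by 1.47, both subunits of the immunoproteasome, and Tap1, the peptide transporter, by 1.02. Cxcl10, a chemokine that attracts T cells, did not pass, at 0.70, 1.42 and 2.18 CPM in Deficient uteri, against 1.38, 2.22 and 4.63 CPM in Control uteri (-0.83 ± 0.39, edgeR adjusted p = 0.105).

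The fall was present at both times. At ZT05 alone 34 members were called lower (11.5% of all genes), and at ZT17 alone 31 (17.1%). The module mean at ZT05 was 4.62 ± 0.60 in Deficient and 6.71 ± 0.38 in Control uteri; at ZT17 it was 4.49 ± 0.16 in Deficient and 6.40 ± 0.84 in Control uteri (SD, n = 3 each). No member had a response that differed between the times by edgeR (0 called, 0 with an unadjusted p under 0.05, and 0% of all genes called). Members with and without the GAAANNGAAA motif in the window searched both fell. Their medians were -1.89 and -1.76 on the log2 scale, and 15 of 17 and 10 of 11 were called lower.

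Upstream of the module, the ligands were nearly silent in the uterus except for interferon epsilon. Of 10 interferon genes looked at, only Ifne passed the filter on low counts. Ifne had 0.416, 1.24 and 1.95 CPM in Deficient uteri, against 1.32, 11.8 and 14.2 CPM in Control uteri. Only the lowest Control library, no. 48, lay within the Deficient range, and the log2 fold change was -3.03 ± 0.52 (edgeR adjusted p = 0.000877). Over all genes tested in the uterus, 23.8% were called lower and 21.2% higher. Of 17 receptor and signalling genes, 10 were called lower and 0 higher (median -0.54). Irf9, a subunit of the complex named above, fell by 1.25, the receptor chains Ifngr2, Ifngr1 and Il10rb by 1.72, 0.64 and 0.54, the feedback inhibitors Socs1 and Socs3 by 1.04 and 0.61, the phosphatase Ptpn6 by 0.92, and Irf1 and Irf2 by 1.01 and 0.49. The receptor chains Ifnar1 and Ifnar2 had log2 fold changes of 0.17 and -0.24 that did not pass. Of 14 nucleic acid sensing genes 8 were called lower, with Tmem173 (STING) falling by 2.34 and Tlr3 by 1.29. Of 35 other interferon-inducible genes 31 were called lower and 0 higher (median -1.40); Ifit1bl1 fell by 4.62 and Gbp4 by 2.34, while Cxcl9, Trim21, Ciita and Gbp5 did not pass.

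Genes of cell types and of hormone response moved in the same libraries. The counts called below stand beside 23.8% lower and 21.2% higher over all genes tested in the uterus. Summed CPM of 14 macrophage and monocyte markers ran from 388 to 645 in Deficient and from 935 to 1540 in Control uteri, and 11 of the 14 were called lower and 1 higher. Adgre1 (F4/80) fell by 1.40 on the log2 scale, while Mertk, a receptor for the uptake of dying cells, rose by 1.06, at 27.4 to 52.4 CPM in Deficient and 17.1 to 23.7 CPM in Control uteri without overlap. All 7 neutrophil markers that passed the filter were called lower, and the 12 markers together summed to 46.8 to 1350 CPM in Deficient and 2390 to 14900 CPM in Control uteri. Ltf, which uterine epithelium also makes under oestrogen, supplied most of that sum, at 23.3 to 1338 CPM in Deficient and 2320 to 14750 CPM in Control uteri. Ly6g, a neutrophil surface marker, was at 0 to 0.881 CPM in Deficient and 1.10 to 4.96 CPM in Control uteri, and Camp was at 0 in all 12 libraries. The 11 oestrogen-responsive uterine genes, Ltf among them, summed to 796 to 3930 CPM in Deficient and 6130 to 38400 CPM in Control uteri, and 8 of the 11 were called lower. C3, Ltf and Lcn2 had the highest means of these genes in Control uteri, at 9286, 7464 and 4576 CPM. Pgr and Greb1 went the other way, with means of 330 and 119 CPM in Deficient, against 215 and 111 CPM in Control uteri. In the sum of the oestrogen-responsive genes the libraries at the edge were the same as in the module. No. 35 was the highest Deficient library at 3930 CPM and no. 48 the lowest Control library at 6130 CPM. The same held for the neutrophil sum (1350 CPM in no. 35 and 2390 CPM in no. 48) and the epithelial sum (2310 and 2050 CPM). Since Ltf makes up most of the neutrophil sum and is also in the oestrogen-responsive one, those sums are not independent. In the macrophage and monocyte sum no. 35 was the highest Deficient library, but the lowest Control library was no. 56. Epithelial markers summed to 1330 to 2310 CPM in Deficient and 2050 to 6310 CPM in Control uteri (8 of 10 lower, 1 higher). Endothelial markers went the other way and summed to 420 to 738 CPM in Deficient and 271 to 454 CPM in Control uteri (9 of 10 higher).

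Lymphoid markers changed less. Over all genes tested in the uterus 23.8% were called lower and 21.2% higher, so that the small counts called below say little on their own. Summed CPM of the 14 T and NK cell markers was 27.8 to 43.4 in Deficient and 31.1 to 48.6 in Control uteri (3 of the 13 that passed the filter lower), and that of the B and plasma cell markers 208 to 449 in Deficient and 262 to 435 in Control uteri (2 of 5 lower). Markers of plasmacytoid dendritic cells, known for making type I interferon, summed to 267 to 323 CPM in Deficient and 168 to 248 CPM in Control uteri (1 lower and 1 higher of 7). Tcf4, which many cell types express, supplied most of that sum, at 236 to 289 CPM in Deficient and 136 to 206 CPM in Control uteri, and was the gene called higher. Siglech, a defining gene of these cells in mice, had a log2 fold change of -0.06 that did not pass. Stromal and smooth muscle markers summed to 7310 to 11100 CPM in Deficient and 6760 to 15400 CPM in Control uteri (4 lower and 4 higher of 12). What part these cell types or the hormone response had in the fall of the module was not tested.

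The response of the uterus was set against that of other tissues of the same 12 females, with limma on the difference between tissues within each animal. Because the members were chosen with earlier results of these data known, the counts of members below are descriptive. Against the labelled ovary, the response was lower in the uterus for 32 of 39 members (15.3% of all genes; median difference -1.53 on the log2 scale). Against spleen it was lower for 32 members (16.3%; median -1.41) and higher for 1 (17.2%), and against lung it was lower for 33 (17.8%; median -1.83). Zbp1 had the largest or second largest difference in each: -3.39 ± 0.62 against labelled ovary (limma adjusted p = 0.0031), -3.94 ± 0.54 against spleen (limma adjusted p = 0.00078) and -4.03 ± 0.48 against lung (limma adjusted p = 0.000452). Rsad2 was the exception against spleen, with a response higher in the uterus by 2.01 ± 0.45 (limma adjusted p = 0.00655).

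**Figure D2:**
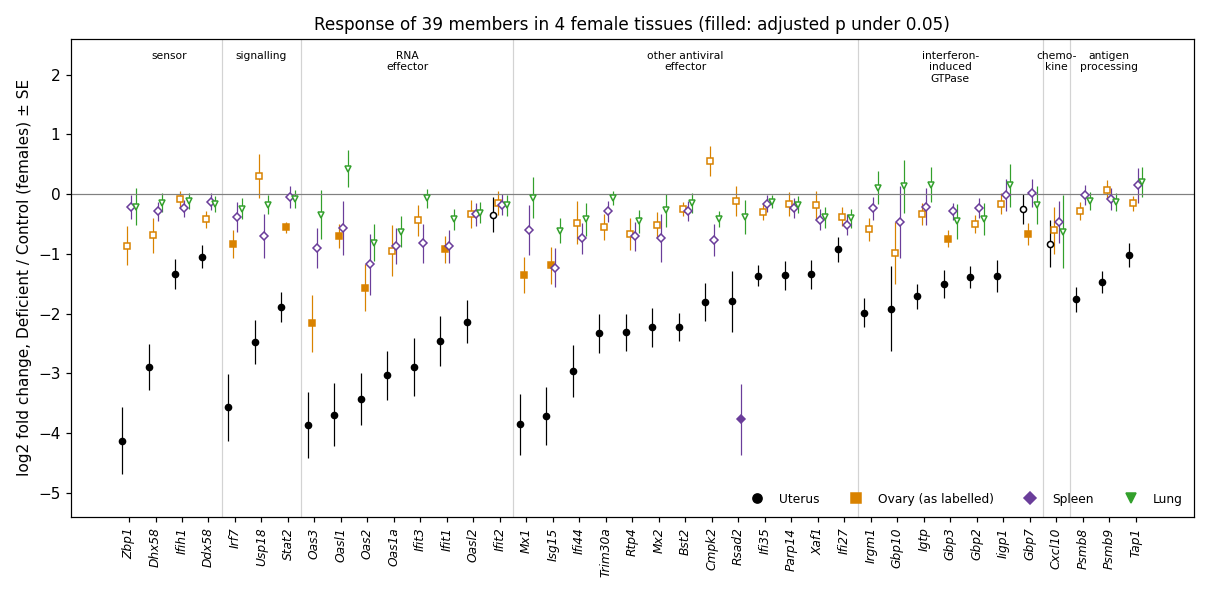
Log2 fold change (Deficient over Control, females) with its SE for the 39 members in uterus, labelled ovary, spleen and lung, grouped by role; filled symbols passed an edgeR adjusted p of 0.05. The uterus points lie below those of the other tissues for most members, Rsad2 in spleen lies at -3.77, and Ifit2, Gbp7 and Cxcl10 are the open uterus symbols.

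In Control females the uterus also had the highest module mean of the 18 tissues, at 6.56, followed by labelled ovary (4.78), spleen (4.59), lung (4.22) and adrenal gland (3.98). Brown adipose tissue was lowest at 1.89. In Deficient females the uterus, at 4.56, lay near labelled ovary (4.36), spleen (4.14) and lung (4.03): its libraries, 4.14 to 5.30, overlapped those of labelled ovary (3.76 to 4.75) and spleen (3.93 to 4.36). Among Control females the uterus libraries (5.45 to 7.05) overlapped those of no other tissue, while labelled ovary (3.82 to 5.19), spleen (4.51 to 4.63) and lung (3.88 to 4.38) lay close together. In males the module mean was highest in spleen (4.17 in Deficient, 4.46 in Control) and lowest in testis (1.28 in Deficient, 1.23 in Control).

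**Figure D3:**
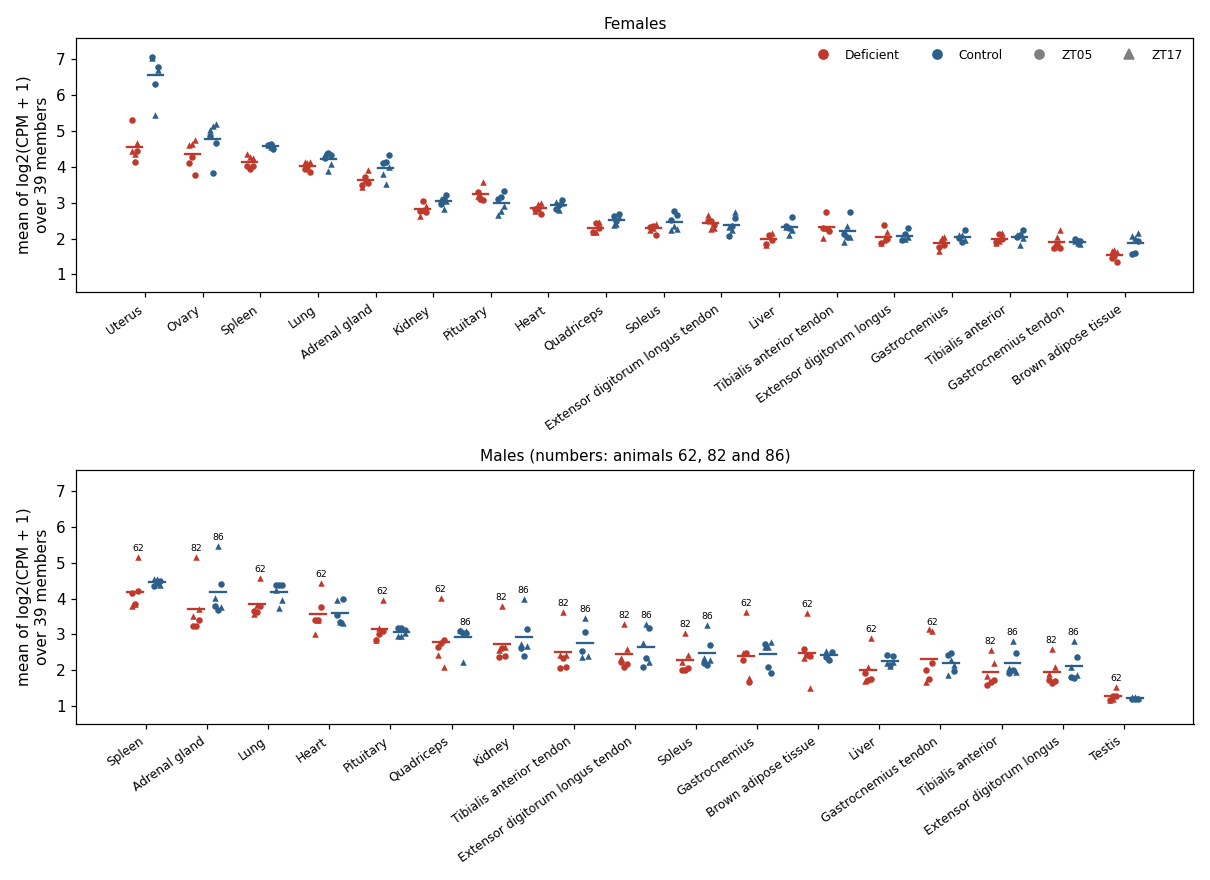
Module mean, the mean of log2(CPM + 1) over 39 members, in each library by tissue, females above and males below, Deficient left and Control right, circles for ZT05 and triangles for ZT17, lines for group means. Uterus and spleen of females are the tissues in which the groups do not overlap, and male libraries numbered 62, 82 and 86 stand above most others.

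Outside the uterus, calls were few. Over the other 17 female tissues, 29 of 636 tested pairs of member and tissue were called lower and 6 higher, against 4.11% lower and 3.89% higher over all genes. The libraries labelled ovary held 10 of the 29 (5.78% of all genes lower there). Oas3 had 0.172, 0.716 and 1.28 CPM in Deficient, against 0.634, 3.72 and 11.5 CPM in Control libraries labelled ovary (-2.16 ± 0.47, edgeR adjusted p = 0.0227). Oas2 had 5.34, 20.5 and 43.8 CPM in Deficient, against 4.53, 61.4 and 113 CPM in Control (-1.56 ± 0.40, edgeR adjusted p = 0.0367). Both overlapped between the groups. Mx1 (-1.36), Isg15 (-1.19), Ifit1 (-0.93), Irf7 (-0.83), Gbp3 (-0.74), Oasl1 (-0.70), Gbp7 (-0.66) and Stat2 (-0.55) were the others called. Without the 3 libraries with the most Zp3 (nos. 39, 47 and 59), a choice made after seeing the data, 18 members were called lower (7.92% of all genes), with a median of -0.53. The count depended on single libraries: it was 19 without Control ZT05 replicate 2 (no. 39), and leaving out others took it to as few as 0.

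In spleen, the fit over both sexes called 1 member in females and the same 1 in males (1.2% of all genes lower in females and 0.469% in males). Rsad2 had 1.38, 2.09 and 3.50 CPM in Deficient females, against 5.97, 21.8 and 78.6 CPM in Control females, and 0, 0.618 and 2.50 CPM in Deficient males, against 3.84, 12.9 and 36.4 CPM in Control males. The groups did not overlap in either sex. Its log2 fold change was -3.77 ± 0.60 in females (edgeR adjusted p = 0.00109) and -3.81 ± 0.74 in males (edgeR adjusted p = 0.0179). Fitted without males, 26 of the 39 members were called lower in female spleen (6.64% of all genes). In that fit Isg15 fell by 1.27 ± 0.20 (edgeR adjusted p = 0.00524), with 2.87, 4.38 and 5.54 CPM in Deficient, against 7.25, 8.40 and 14.6 CPM in Control females. Oas2 fell by 1.21 and Oas3 by 0.94 in the same fit. The module mean of female spleen was 4.14 in Deficient and 4.59 in Control, without overlap, and 8 members had every Deficient library below every Control library (1.71% of all genes).

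In female liver 6 members were called lower (2.69% of all genes): Oas2 (-1.30), Isg15 (-1.11), Ifit1 (-1.01), Oasl1 (-0.97), Ifit3 (-0.86) and Bst2 (-0.86). Bst2 had 13.3, 16.4 and 17.5 CPM in Deficient, against 20.9, 26.8 and 39.6 CPM in Control livers, without overlap (edgeR adjusted p = 0.000439). Isg15 had 0.743, 0.911 and 1.36 CPM in Deficient, against 1.76, 1.96 and 3.01 CPM in Control livers, also without overlap (edgeR adjusted p = 0.024). Oas2 was below 1 CPM in every female liver.

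In the limb muscles of females the recurrent call was Ifi27, a small mitochondrial and nuclear envelope protein gene. It was called lower in soleus, tibialis anterior, extensor digitorum longus, quadriceps and the extensor digitorum longus tendon. All genes were called lower at 9.48% in soleus, 15.1% in tibialis anterior, 16% in extensor digitorum longus, 0.814% in quadriceps and 3.84% in that tendon, so that in the first 3 muscles the members were called no more often than all genes. In soleus Ifi27 had 16.4, 23.1 and 28.1 CPM in Deficient, against 32.6, 33.0 and 37.2 CPM in Control females, without overlap (-0.54 ± 0.10, edgeR adjusted p = 0.000989). In quadriceps it had 15.7, 18.3 and 29.1 CPM in Deficient, against 27.8, 39.3 and 58.2 CPM in Control females (-1.06 ± 0.25, edgeR adjusted p = 0.0344). Males had Ifi27 lower in soleus (-0.37 ± 0.10, edgeR adjusted p = 0.0232) and lung (-0.55 ± 0.16, edgeR adjusted p = 0.0482). In female tibialis anterior Gbp10 was higher, with 15.2, 30.9 and 36.1 CPM in Deficient, against 7.78, 15.3 and 24.2 CPM in Control muscle (0.89 ± 0.18, edgeR adjusted p = 0.000922). Rsad2 (0.88) and Ifih1 (0.32) were also higher there (3 of 35 members, against 15.6% of all genes), while Isg15 (-0.88), Oas2 (-0.86) and Ifi35 (-0.38) were lower, with Ifi27 (4 of 35, against 15.1% of all genes).

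Other calls in females were scattered. In extensor digitorum longus Cxcl10 was higher (2.33), at levels below 1 CPM in every library, and Usp18 lower (-0.57), with 1 of 36 members higher and 2 lower against 16% of all genes in each direction; in the tendon of that muscle Ifi35 was lower (-0.37). In kidney Oas1a (-1.01) and Cmpk2 (-0.54) were lower (4.67% of all genes). In the pituitary Dhx58 was higher, with 4.86, 5.60 and 7.68 CPM in Deficient, against 2.06, 3.03 and 4.93 CPM in Control females (0.93 ± 0.21, edgeR adjusted p = 0.0262). Oasl2 was higher there too (0.70 ± 0.18, edgeR adjusted p = 0.0454), where 0.904% of all genes were higher. The module mean of the female pituitary was 3.24 in Deficient and 2.99 in Control, the highest difference (0.25) of the 18 tissues, with overlap.

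Fitted without males, the female tissues gave more calls: 112 of 596 pairs in the 16 tissues shared with males were lower and 10 higher, against 6.39% lower and 5.92% higher over all genes. Besides the spleen, brown adipose tissue held 15 lower calls (3.56% of all genes), liver 13 (7.43%) and quadriceps 13 (10.1%). In brown adipose tissue Ifi44 had 0.193, 0.595 and 0.735 CPM in Deficient, against 0.783, 1.41 and 2.29 CPM in Control females, without overlap (-1.47 ± 0.28, edgeR adjusted p = 0.00905). Oas2 (-1.5) and Oasl2 (-1.35) were lower there too. In quadriceps Isg15 (-1.75), Zbp1 (-1.34) and Irf7 (-1.07) were lower and Cxcl10 (2.47) was higher. The 2 fits share the same female libraries and differ in the estimate of spread and in the genes that pass the filter.

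**Figure D4:**
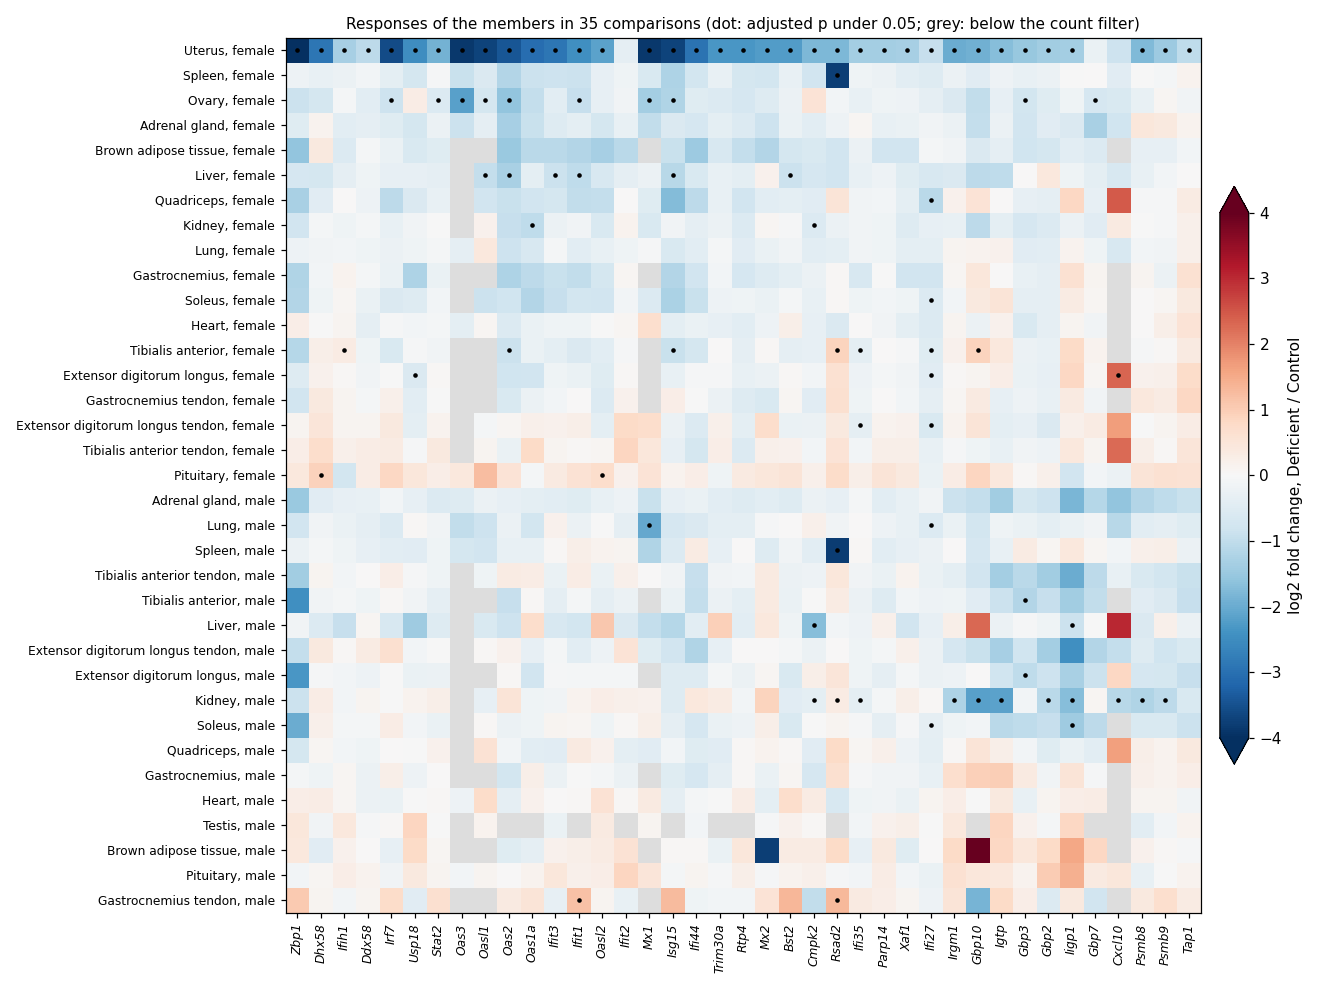
Log2 fold change (Deficient over Control) of each member in each tissue and sex, with female uterus at the top and the other tissues, females and then males, ordered by the difference in module mean; the colour scale ends at 4 in both directions. The uterus has the largest fall of all rows for most members, and Rsad2 in spleen stands out in both sexes.

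In males 19 of 624 tested pairs were called lower and 3 higher, against 3.16% lower and 3.09% higher over all genes. The male kidney held 10 of the 19, out of 38 members tested there, where 20.8% of all genes were called lower and 20.1% higher. That share is close to the one over all genes, and the kidney calls do not set the members apart. Gbp10 (-2.17), Igtp (-2.13), Iigp1 (-1.71), Irgm1 (-1.22), Psmb8 (-1.19), Cxcl10 (-1.12), Gbp2 (-1.08), Psmb9 (-1.05), Cmpk2 (-0.40) and Ifi35 (-0.39) were lower, and Rsad2 (0.33) was higher. Igtp had 11.95, 14.2 and 22.1 CPM in Deficient, against 14.8, 21.3 and 423 CPM in Control kidneys (edgeR adjusted p = 0.00253). The groups overlapped, and the value of 423 CPM belonged to no. 86. Without Control ZT17 replicate 2, which is no. 86, 2 members were called lower; without Deficient ZT17 replicate 2, which is no. 82, 16 were. Without nos. 62, 82 and 86 the male kidney held 3 lower calls among 38 members tested, against 12.4% of all genes.

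**Figure D5:**
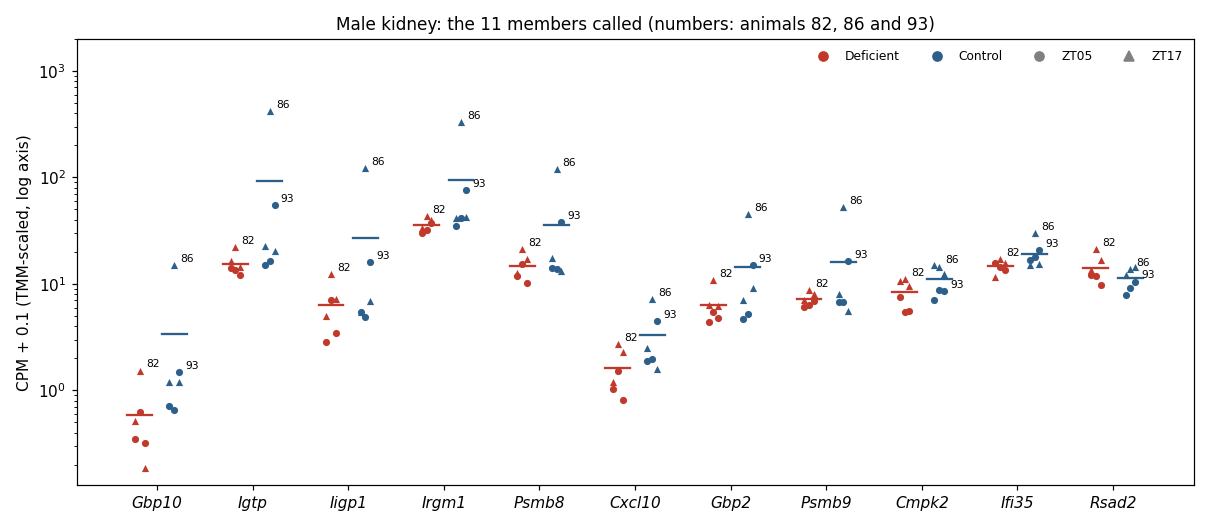
CPM + 0.1 of the 11 members called in the male kidney, for each library on a log axis, Deficient left and Control right, circles for ZT05 and triangles for ZT17, lines for group means. Control library no. 86 carries the highest value for most of these members, with Igtp at 423 CPM where the Deficient libraries lie between 11.95 and 22.1 CPM.

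The other male calls were Mx1 in lung (-2.05 ± 0.42, edgeR adjusted p = 0.00635), where it had 0.234, 0.526 and 1.46 CPM in Deficient, against 1.08, 2.13 and 8.21 CPM in Control males, Cmpk2 (-1.70) and Iigp1 (-0.86) in liver, Iigp1 in soleus (-1.41), Gbp3 in extensor digitorum longus (-1.01) and tibialis anterior (-1.17), and the calls of Ifi27 and Rsad2 given above. Lower calls went to 2 of 39 members in lung, 2 of 38 in liver and 2 of 37 in soleus, against 3.39%, 4.02% and 5.5% of all genes. They went to 1 of 36 in extensor digitorum longus and 1 of 35 in tibialis anterior, against 6.27% and 5.35%. These calls therefore do not set the members apart from all genes. In the gastrocnemius tendon Rsad2 (1.31) and Ifit1 (1.18) were higher (4.22% of all genes). There all 6 Deficient libraries came from the lower number range and 2 of the 6 Control libraries (nos. 77 and 78) from the higher one; with a term for the number range the values were 1.44 for Rsad2 (edgeR adjusted p = 0.0746) and 0.93 for Ifit1 (edgeR adjusted p = 0.136), and neither passed. Ifit1 had 2.26, 3.78 and 8.55 CPM in Deficient, against 0.873, 2.04 and 3.63 CPM in Control tendons, with overlap. Without nos. 62, 82 and 86, 41 pairs were called lower and 2 higher in males, against 2.38% and 2.49% of all genes. Lung then held 15 lower calls (3.42%) and liver 9 (4.63%). In lung and liver only no. 62 was left out. Its module mean was the highest of the Deficient libraries there, at 4.59 in lung and 2.89 in liver. Leaving out such a library lowers the Deficient group by construction. No. 93, a Control animal among the 3 highest in its 7 tissues, was kept in this setting.

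Whether the response differed between the sexes was tested in the 16 tissues with both. Of 597 pairs 3 were called, against 1.15% of all genes. The response of Cxcl10 in kidney was higher in females by 1.48 ± 0.47 (edgeR adjusted p = 0.0374), with medians of 2.50 CPM in Deficient and 2.46 CPM in Control females, and 1.27 CPM in Deficient and 2.13 CPM in Control males. That of Rsad2 in kidney differed by -0.57 ± 0.17, females minus males, (edgeR adjusted p = 0.0271) and that of Gbp10 in tibialis anterior higher in females by 1.34 ± 0.26 (edgeR adjusted p = 0.0483). Without nos. 62, 82 and 86, 0 pairs were called by edgeR. In 7 of the 16 tissues, kidney and tibialis anterior among them, all males came from the higher number range and all females from the lower one, and there sex and number range cannot be told apart.

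Between the times, 13 of 702 pairs had a response that differed, 12 of them higher at ZT17 and 1 lower, against 1.9% of all genes. Taken over all tissues, the members were thus called about as often as all genes. Lung held 8, against 3.01% of all genes: Gbp10 (2.62), Zbp1 (1.85), Ifi44 (1.46), Ifit2 (1.04), Cmpk2, Trim30a, Ifih1 and Psmb9 (0.80 to 0.86). In male lung Gbp10 at ZT17 had 0.640, 0.435 and 3.87 CPM in Deficient, against 0.699, 0.323 and 0.602 CPM in Control mice; at ZT05 it had 0.326, 0.350 and 0.252 CPM in Deficient, against 1.61, 2.83 and 3.63 CPM in Control mice. The value of 3.87 CPM belonged to no. 62. The others were Usp18 in liver (2.28) and tibialis anterior (1.15), Tap1 in liver (1.89), Gbp7 in brown adipose tissue (2.09) and Gbp10 in soleus (-1.17). Without replicate 3, only 1 pair was called over all tissues.

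Time of day itself moved few members. ZT17 minus ZT05 was called for 20 of 702 pairs in Control mice (9 higher, 11 lower; 5.26% of all genes) and for 9 in Deficient mice (9 higher; 1.6% of all genes). Gbp10 in limb muscle was the recurrent one. In female soleus it had 258, 193 and 145 CPM at ZT17 and 101, 122 and 57.1 CPM at ZT05 in Deficient mice, and 219, 225 and 193 CPM at ZT17 and 56.5, 32.4 and 65.9 CPM at ZT05 in Control mice. The times did not overlap in either group. Over both sexes the change in soleus was 0.79 ± 0.20 in Deficient (edgeR adjusted p = 0.0383) and 1.96 ± 0.21 in Control mice (edgeR adjusted p = 2.83e-06), and their difference was the call of -1.17 given above. In extensor digitorum longus the change of Gbp10 was 0.74 in Deficient and 1.34 in Control mice, and in tibialis anterior 0.66 in Deficient and 0.99 in Control mice. In Control lung 8 members were lower at ZT17: Gbp10, Mx1, Zbp1, Ifi44, Trim30a, Ifit2, Psmb8 and Ifih1, with log2 changes from -0.46 (Ifih1) to -1.55 (Gbp10), where 7.38% of all genes were lower.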

How the data were processed

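RNA was extracted with TRIzol and polyA libraries were made with a stranded TruSeq kit, per the labels' protocols. Per the submitters' processing notes, STAR 2.7.10a, cutadapt 4.1, DESeq2 1.34.0 and FastQC 0.11.9 were run, on GRCm38 (mm10); the counting program and annotation are not given in the sources used here. The authors deposited raw counts per gene, which were used; the normalized table beside them was not. Reads of overlapping genes (17 of the 39 members overlap another annotated gene) and of paralogs (Gbp, Ifit, Oas and Trim30 families) may be split uncertainly.

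Each tissue was fitted with edgeR 4.0.16 (R 4.3.3): filterByExpr (minimum count 10, minimum total 15), TMM, 1 coefficient for each sex, treatment and time, quasi-likelihood F test, Benjamini-Hochberg adjustment over all genes tested, calls at 0.05; the SE is the fold change over the square root of F. CPM are TMM-scaled. Differences between tissues used limma 3.58.1 on log2 CPM (prior count 2). Scripts were tested on simulated data. Values per library are given for the 10 called members with the largest uterus fold change, the members not called there, and in other tissues up to 4 called members and those against the majority; called ligand and receptor genes are named, except an item that is not reported here. Members, roles and lists were chosen with earlier results of these data known. Within a tissue each library has its own animal number, and p-values measure the spread between these animals; counts of pairs over tissues pool the same animals. Promoter motifs were searched by script. Alternatives were no filter, a stricter filter (5 CPM in 3 libraries), DESeq2 1.42.0 as a test and its size factors, each sex fitted alone, a term for the number range, the replicate block, prior count and pseudocount, and libraries left out.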

Additional observations from a re-analysis of the deposited data

Results flagged for a closer look

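In the uterus, 21 of 78 arms of members (1 gene in 1 treatment) held a library far from the others. The cut-off gives about 1 in 20 for a single arm of normally spread values. The arms share the same libraries and were judged on CPM without logs, so that 21 of 78 cannot be set against that rate. In 20 of the 21 the library was the highest of the Deficient ones. In 19 of these it was no. 35: Ddx58 at 101, Dhx58 at 23.6, Zbp1 at 30.5, Irf7 at 119, Usp18 at 29.0, Ifit1 at 63.7, Ifit3 at 45.2, Oas1a at 35.0, Oas2 at 98.1, Oas3 at 33.5, Oasl1 at 23.3, Isg15 at 20.1, Mx1 at 13.95, Trim30a at 58.5, Ifi44 at 115, Rtp4 at 59.0, Irgm1 at 106, Psmb8 at 96.2 and Psmb9 at 31.6 CPM. For Rsad2 the highest Deficient library, no. 60, had 22.2 CPM and the highest Control library, no. 32, had 134 CPM.

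The module mean had such a library in 9 of 70 arms, all in males. The highest Deficient library had 3.96 in pituitary, 4.59 in lung, 2.89 in liver, 5.17 in adrenal gland, 3.80 in kidney, 5.16 in spleen, 1.54 in testis and 3.64 in the tibialis anterior tendon; the lowest Control library had 2.23 in quadriceps.

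The response differed between ZT17 and ZT05, on the log2 scale, in lung for Gbp10 (2.62), Zbp1 (1.85), Ifi44 (1.46), Ifit2 (1.04), Trim30a (0.86), Cmpk2 (0.86), Ifih1 (0.85) and Psmb9 (0.80). It also differed in liver for Usp18 (2.28) and Tap1 (1.89), in tibialis anterior for Usp18 (1.15), in brown adipose tissue for Gbp7 (2.09) and in soleus for Gbp10 (-1.17). These were 13 of 702 pairs, against 1.9% of all genes. Between the sexes, females minus males, it differed for Cxcl10 (1.48) and Rsad2 (-0.57) in kidney and for Gbp10 (1.34) in tibialis anterior. Those were 3 of 597 pairs, against 1.15% of all genes. Between tissues it was lower in the uterus for 32 members against labelled ovary, 32 against spleen and 33 against lung.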

How the results depend on the processing

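In the uterus, the count of members called lower stayed between 34 and 37 in every setting run, the leave-one-out range being 34 to 36, and 0 were called higher. The module mean difference ran from -2.05 to -1.78 with other scalings and from -2.22 to -1.90 with a replicate left out. Over single uterus genes, 799 of 817 settings kept the side of the threshold and the direction, 14 lost the call and 1 gained it. With a replicate left out, the log2 fold change of Gbp7 ran from -0.54 to 0.112 (without replicate 1) and that of Ifit2 from -0.61 to 0.105 (without replicate 1), with 0.097 without uterus Control ZT17 replicate 1; none of the positive values passed. Elsewhere 345 of 968 settings lost a call and 0 reversed; the cause was not tested.

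The number of pairs called lower in females outside the uterus (29) was 84 without a filter, 122 with each sex fitted alone, 57 without males 62, 82 and 86 and 3 to 38 with a replicate left out; pairs called higher (6) were 14 without a filter, 11 by DESeq2, 10 with each sex alone and 1 to 7. In males, lower pairs (19) were 61 without a filter, 36 by DESeq2, 7 with each sex alone, 41 without those males and 7 to 25 with a replicate left out, and higher pairs (3) were 8 without a filter, 5 by DESeq2, 1 with a stricter filter, 1 with each sex alone and 0 to 3. Sex differences (3) were 42 without a filter, 6 by DESeq2, 0 without those males, 5 with a term for the number range and 0 to 2. Time differences (13) were 57 without a filter, 31 by DESeq2 and 1 to 14. ZT17 minus ZT05 was called for 42 pairs without a filter, 32 without those males and 7 to 12 in Control mice, and in Deficient mice for 80 without a filter, 34 by DESeq2, 5 without those males, 14 without labelled ovary libraries 39, 47 and 59, and 3 to 4. Labelled ovary (10) had 18 without these libraries and 0 to 19. Male kidney (10) had 5 with males fitted alone, 3 without those males and 2 to 16. The tissue differences ran over 28 to 35 (labelled ovary), 29 to 33 (spleen) and 32 to 34 (lung).

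Replicate numbers were not taken as pairs: same-numbered libraries had mean correlations from -0.034 to 0.0755. With the replicate block 35 uterus members were called lower, and the blocked counts elsewhere were 29 and 6 in females, 19 and 2 in males and 7 in labelled ovary.

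Leaving out a replicate reduces the samples in each fit. Depth limits what can be tested: 27 of 39 members passed the filter in testis and 35 to 39 in the other tissues. Settings that drop numbered animals were added after seeing the data.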
